A study of Mus musculus with 41 samples.

Results

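The 10 genes described here encode the core of mechanistic target of rapamycin complex 1 (mTORC1), its nearest regulators and its best-known translation targets. They were taken by symbol from a fixed list, *Mtor*, *Rptor*, *Deptor*, *Rheb*, *Tsc1*, *Tsc2*, *Ddit4*, *Eif4ebp1*, *Eif4ebp2* and *Rps6kb1*, which was drawn up with earlier results of these data known but sets no threshold on a measured value. All 10 are among the 22438 genes with footprint counts and among the 55385 genes with RNA values, where they have 69 of the 142552 transcripts. Every member passed the filter on low counts in each comparison of genes.

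The series holds 41 mouse libraries, of which 30 are ribosome footprints (the stretches of mRNA that translating ribosomes protect from nuclease, or RPFs) and 11 are RNA. It asks how loss of ribosome rescue (*Hbs1l*, *Pelo*) or of nonsense-mediated decay (*Upf2*) alters translation. Embryos were *Hbs1l*-/- or wild type on C57BL/6NJ at E8.5, each replicate a pool of embryos, and cerebella came from C57BL/6J mice at P14 that were Tg(Atoh1-Cre); *Hbs1l* cKO or Tg(Atoh1-Cre); *Hbs1l*+/+, 1 cerebellum per replicate. Atoh1-Cre acts in the granule cell lineage, so other cerebellar cells keep the floxed copy. Mouse embryonic fibroblasts (MEFs) came from C57BL/6 embryos, 1 embryo per replicate, and carried the tamoxifen-inducible CAG-Cre ER. Mutant cells were CAG-Cre ER; *Hbs1l* cKO, *Pelo* cKO or *Upf2* cKO and controls carried the Cre alone (the *Hbs1l* cKO mice and cells had 1 floxed and 1 null allele), and all MEFs, controls included, were treated with 4-hydroxytamoxifen (4-OHT). The conditional mice and MEFs, controls included, had the B6J allele of the tRNA gene *n-Tr20*. Each group had 3 libraries except *Pelo*-/- RNA, which had 2. Library totals were 2634480 to 7298812 counts in embryos, 10919139 to 22591768 in cerebella, 5782990 to 25607974 in MEF footprints and 22713643 to 86425762 in RNA.

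mTORC1 is a kinase complex that raises protein synthesis and growth when amino acids, growth factors and energy are at hand. mTOR is its catalytic subunit, RAPTOR recruits substrates, and DEPTOR binds mTOR and inhibits it. The GTPase RHEB activates the complex at the lysosome, the TSC1-TSC2 complex switches RHEB off, and DDIT4 (REDD1), which is induced by stress, acts through TSC2. The 4E-BPs, encoded by *Eif4ebp1* and *Eif4ebp2*, bind the cap-binding protein eIF4E and block initiation until mTORC1 phosphorylates them, and S6 kinase 1, encoded by *Rps6kb1*, is the other classical substrate. These activities are set by phosphorylation and binding, which neither footprints nor RNA measure.

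On GRCm38 (GENCODE M21), the genes of the complex lie at chr4:148448611-148557683 (*Mtor*, + strand), chr11:119602905-119899576 (*Rptor*, + strand) and chr15:55112317-55259271 (*Deptor*, + strand). Its regulators lie at chr5:24802823-24842624 (*Rheb*, - strand), chr2:28641228-28691167 (*Tsc1*, + strand), chr17:24595816-24632630 (*Tsc2*, - strand) and chr10:59949669-59951834 (*Ddit4*, - strand). Its targets lie at chr8:27260329-27276674 (*Eif4ebp1*, + strand), chr10:61428491-61452661 (*Eif4ebp2*, - strand) and chr11:86498871-86544805 (*Rps6kb1*, - strand).

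The coding stretches that hold the eIF4E-binding motif of the 2 repressors are shown because these genes hold 4 of the 6 differences between mutant genotypes that passed a test below, and a short footprint can be assigned to one of them only where their sequences differ. Capitals mark the codons of the motif from its tyrosine to its leucine, a run found once in frame in each coding sequence, and the codon of its last, hydrophobic residue follows in lower case. The *Eif4ebp1* stretch is coding bases 112 to 219 of 354, in exons 1 to 2 on the + strand of GRCm38 between chr8:27260520-27273399. The *Eif4ebp2* stretch is coding bases 115 to 222 of 363, in exons 1 to 2 on the - strand between chr10:61435027-61452432. Both are from the main coding transcript in GENCODE M21 and are written 5′ to 3′.
Eif4ebp1: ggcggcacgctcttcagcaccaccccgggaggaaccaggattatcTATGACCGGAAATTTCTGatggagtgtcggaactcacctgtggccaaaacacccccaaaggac
Eif4ebp2: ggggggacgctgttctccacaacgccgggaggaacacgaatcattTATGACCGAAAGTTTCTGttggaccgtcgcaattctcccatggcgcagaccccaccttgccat
The whole coding sequences were 66.3% identical in alignment, with a longest shared run of 14 bases. *Rheb* and its paralog *Rhebl1* were 60.4% identical, with a longest shared run of 11 bases.

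Reads of the targeted genes were checked first. *Hbs1l* footprints fell by 3.60 on the log2 scale in *Hbs1l*-/- embryos (SE 0.35), by 1.503 in cKO cerebella (SE 0.13) and by 4.15 in MEFs (SE 0.18), and *Pelo* footprints fell by 3.78 in *Pelo*-/- MEFs (SE 0.16). *Upf2* went the other way in the libraries labelled *Upf2*-/-, with footprints at 115, 113 and 119 CPM (counts scaled to a common library size) against 54.9, 49.2 and 58.3 in controls, and RNA higher by 1.33 (SE 0.24). Transcript Upf2-202 stood at 10.7, 7.42 and 4.45 TPM (transcripts scaled likewise after division by length) there and at 0.485 to 0.546 TPM in control MEFs. Total reads of a gene do not by themselves show whether part of it was deleted, and why *Upf2* reads rose was not tested. Transcripts annotated as targets of nonsense-mediated decay, the pathway that needs UPF2, were more often higher than lower there. Of 2945 such transcripts tested, 434 (14.7%) passed as higher and 3 as lower in these libraries (edgeR, as for genes below), beside 2.99% of protein-coding transcripts higher and 5.35% of all transcripts called in either direction. Without 1 library, 126 to 313 passed as higher and 0 to 3 as lower, the fewest higher without *Upf2*-/- replicate 2. In *Hbs1l*-/- MEFs 6 passed as higher and 4 as lower of 2296 (1.31% of all transcripts called), and in *Pelo*-/- MEFs 3 and 18 of 2165 (2.37%), and in both 0 passed once any 1 library was left out. These counts were added after the other results were seen, whether the genotypes differ in them was not tested, and the label is used below as given. Same-numbered control footprint libraries of the 3 MEF pools agreed far more closely than different-numbered ones (chi-square per gene 1.11 to 1.19 over 9 pairs against 4.04 to 11.6 over 18 pairs), so the 3 MEF comparisons in effect share their controls, as the 3 RNA comparisons do.

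In control MEFs, *Eif4ebp1* had the highest RNA level of the 10 genes, 206 ± 30.9 TPM (SD, n = 3), followed by *Rheb* at 92.5 ± 8.03 TPM. *Tsc2* (31.8 ± 6.77) and *Eif4ebp2* (29.95 ± 3.99) were next and did not differ beyond their spread. *Ddit4* was at 18.45 ± 1.62, *Rps6kb1* at 13.8 ± 1.51, *Rptor* at 8.64 ± 0.93, *Mtor* at 6.83 ± 0.28, *Tsc1* at 3.535 ± 0.96 and *Deptor* at 0.575 ± 0.19 TPM. The inhibitor *Deptor* was thus the rarest of the set and rested on 43 to 72 footprints per control library. These RNA levels sum all transcripts of a gene, noncoding ones included. Protein-coding transcripts held 25.9 to 39.2% of *Rps6kb1* TPM and 23.9 to 39.5% of *Eif4ebp1* TPM over the RNA libraries. The order of coding RNA can therefore differ from this one.

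In *Hbs1l*-/- MEFs, footprints rose on *Mtor* and *Deptor* and fell on *Rheb* and *Eif4ebp2*. This is 4 of 10 genes past the threshold (edgeR quasi-likelihood test, Benjamini-Hochberg adjusted p of 0.05 over all 11984 genes), against 34.1% of all genes tested, with 2 higher (17.4% of all genes) and 2 lower (16.7%). With *Pelo* lost, *Ddit4*, *Deptor* and *Eif4ebp1* rose and *Rheb*, *Tsc2* and *Eif4ebp2* fell, 6 of 10 against 44.1% of all genes (22.9% higher, 21.2% lower). In MEFs labelled *Upf2*-/-, *Rptor*, *Tsc1*, *Ddit4* and *Deptor* rose and *Rheb* fell, 5 of 10 against 43.4% (22.3% higher, 21.1% lower). Read against these shares, the counts are no result about the 10 genes as a set, and the median log2 fold change of the members was 0.10, 0.01 and 0.22 beside -0.01, 0.00 and 0.00 over all genes.

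**Figure D1:**
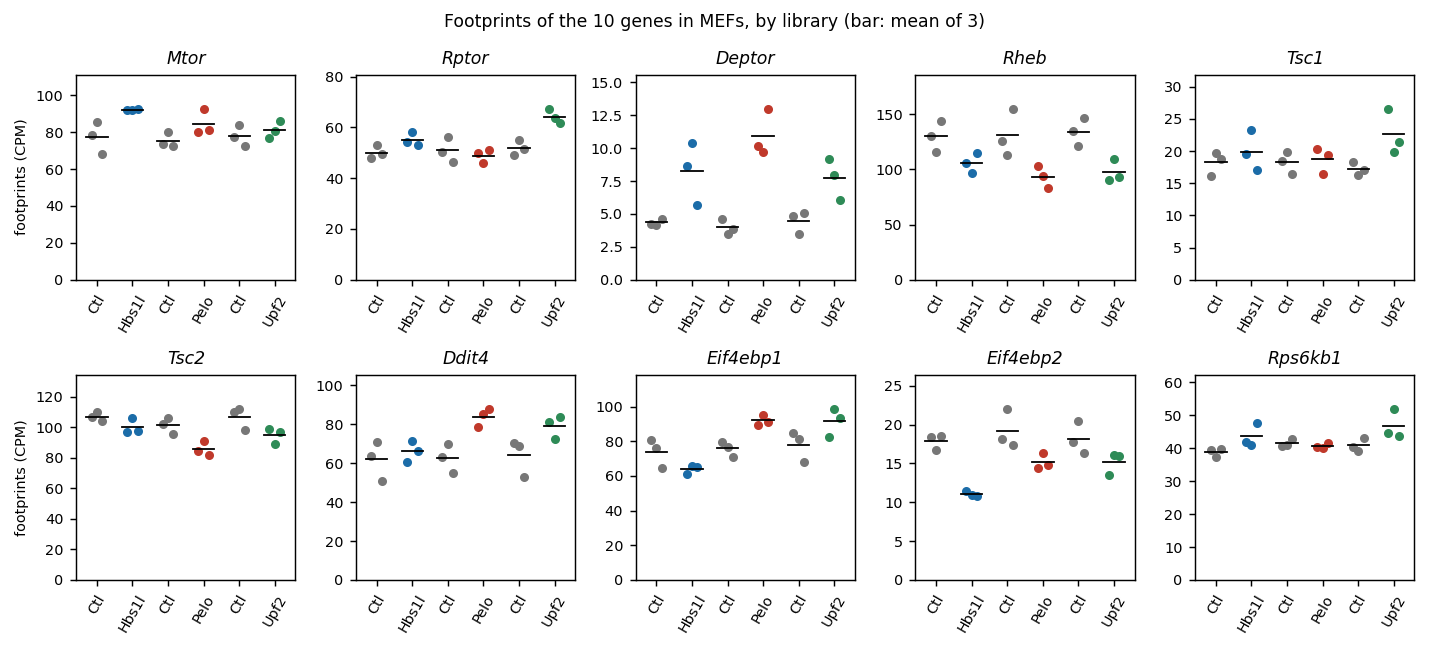
Footprints of each gene in CPM (vertical axis, from 0) for the 18 MEF libraries, as 1 point per library with a bar at the mean of 3. Grey points are the controls sequenced with each mutant, and the last pair of each panel holds the libraries labelled *Upf2*-/-. *Rheb* and *Eif4ebp2* lay below their controls and *Deptor* above them in each mutant group.

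For RNA, *Ddit4* rose and *Rheb* fell in *Hbs1l*-/- MEFs, 2 of 10 genes against 23.1% of all genes (12.7% higher, 10.4% lower). With *Pelo* lost, *Mtor*, *Rptor* and *Tsc1* rose and *Rheb*, *Eif4ebp1* and *Rps6kb1* fell, 6 of 10 against 32.1% (15.5% higher, 16.6% lower). In MEFs labelled *Upf2*-/-, *Rptor* and *Tsc1* rose and *Rheb* fell, 3 of 10 against 20.0% (13.2% higher, 6.76% lower). Whether RNA changes differed between genotypes was not tested.

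Translation efficiency (TE), the change in footprints beyond the change in RNA, was tested by asking whether the genotype effect differed between the assays. With *Pelo* lost it rose for *Deptor*, *Eif4ebp1* and *Rps6kb1* and fell for *Mtor*, *Rptor*, *Tsc1* and *Eif4ebp2*, 7 of 10 genes against 44.6% of all genes (24.3% higher, 20.4% lower). After *Hbs1l* loss 0 of 10 passed in edgeR, where 0.0336% of all genes did. There 3 members had an unadjusted p under 0.05, and DESeq2 called 1, *Eif4ebp2*. In MEFs labelled *Upf2*-/- 0 of 10 passed in edgeR, against 20.3% of all genes, with 2 members under an unadjusted p of 0.05 and 0 called by DESeq2. Whether TE changes differed between genotypes was not tested.

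**Figure D2:**
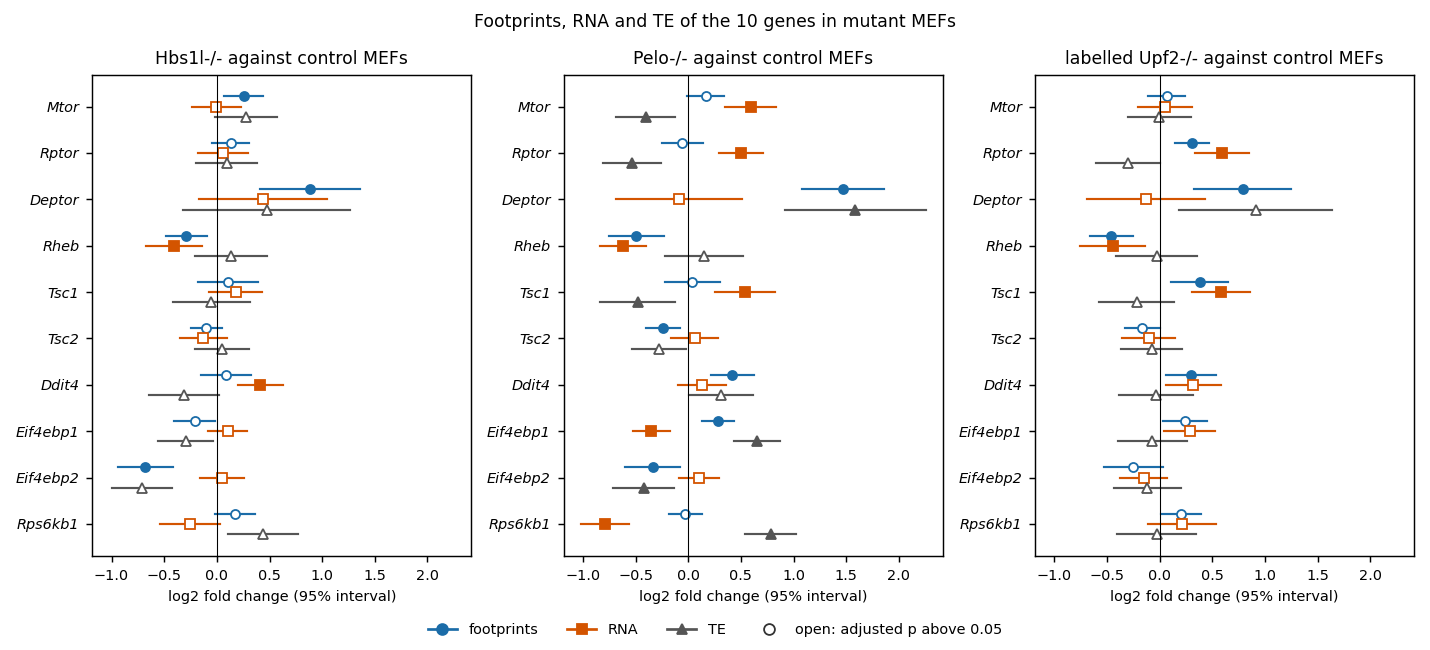
Log2 fold change (horizontal axis) of footprints, RNA and TE for the 10 genes in each mutant against control MEFs, with 95% intervals. Filled symbols passed an adjusted p of 0.05. In *Pelo*-/- MEFs, TE of *Rps6kb1* and *Eif4ebp1* lay above 0 while their RNA lay below it.

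*Mtor*, the kinase itself, had 91.9, 91.8 and 92.7 footprint CPM in *Hbs1l*-/- MEFs and 78.2, 85.4 and 67.9 in their controls. All 3 mutant libraries lay above all 3 controls. The log2 fold change was 0.25 (SE 0.09, edgeR adjusted p = 0.0327), and it stayed past the threshold in only 1 of the 6 fits that left out 1 library, with adjusted p up to 0.11. Its RNA was at 44.9, 41 and 41 CPM against 38.8, 46.7 and 41.7, a change of -0.01 (SE 0.10). In TPM the *Hbs1l*-/- libraries lay above the controls, at 10.6, 8.2 and 7.47 against 6.85, 7.1 and 6.54, and limma on log2(TPM + 1) gave a difference of 0.30 (adjusted p = 0.174). *Mtor* RNA was higher in *Pelo*-/- MEFs, at 62.6 and 63.9 CPM against those same controls, a rise of 0.59 (SE 0.10, edgeR adjusted p = 0.00666). The RNA call held in 3 of 5 fits without 1 library and was lost without *Pelo*-/- replicate 1 (adjusted p = 0.0529) or 2 (0.0501). Its footprints there were at 80.2, 92.6 and 81 CPM against 73.5, 80 and 72.7, a change of 0.16 (SE 0.08, adjusted p = 0.118). TE of *Mtor* fell by 0.41 in these cells (SE 0.13, edgeR adjusted p = 0.0229), a call that held in 7 of 11 fits. In MEFs labelled *Upf2*-/- the changes of *Mtor* were 0.06 in footprints and 0.05 in RNA, and neither passed.

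*Rptor*, the substrate-binding subunit, was higher in MEFs labelled *Upf2*-/- by both measures. Footprints were at 67.4, 63.7 and 61.8 CPM against 49.1, 55.2 and 51.6, a log2 fold change of 0.30 (SE 0.08, edgeR adjusted p = 0.00664). RNA was at 67.3, 75.8 and 84.4 CPM against 47.2, 53.1 and 49.9, a change of 0.59 (SE 0.12, edgeR adjusted p = 0.00558). The groups did not overlap in either assay, and both calls held in each of the 6 fits that left out 1 library. *Rptor* RNA in *Pelo*-/- MEFs rose to 67.9 and 72.2 CPM, a change of 0.50 (SE 0.09, edgeR adjusted p = 0.00722) that held in 4 of 5 fits and was lost without *Pelo*-/- replicate 2 (adjusted p = 0.0683). Its footprints did not follow, at 49.9, 45.9 and 51 CPM against 50.2, 56.1 and 46.5, and TE fell by 0.54 (SE 0.13, edgeR adjusted p = 0.0043), which held in all 11 fits. *Rptor* in *Hbs1l*-/- MEFs changed by 0.13 in footprints and 0.06 in RNA, without passing.

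*Deptor*, the inhibitory subunit, had the largest footprint increases among the 10 genes in the 3 MEF comparisons. It was at 8.67, 10.4 and 5.69 CPM in *Hbs1l*-/- cells against 4.25, 4.19 and 4.65 in controls. It was at 10.2, 9.67 and 13 CPM in *Pelo*-/- cells against 4.58, 3.5 and 3.83, and at 9.14, 7.97 and 6.07 CPM in cells labelled *Upf2*-/- against 4.81, 3.49 and 5.09. No mutant library overlapped its controls. The log2 fold changes were 0.89 (SE 0.22, edgeR adjusted p = 0.00724), 1.47 (SE 0.18, adjusted p = 0.000117) and 0.79 (SE 0.21, adjusted p = 0.0105). Each of these calls held in all 6 fits without 1 library.

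*Deptor* RNA did not pass in any mutant. It was at 2.82, 4.64 and 4.68 CPM in controls, at 5.55, 7.34 and 3.71 in *Hbs1l*-/- cells, at 4.25 and 3.38 in *Pelo*-/- cells and at 3.99, 4.65 and 2.62 in cells labelled *Upf2*-/-. All 3 mutant groups overlapped the controls. The RNA changes were 0.44 (95% interval -0.17 to 1.05), -0.09 (-0.68 to 0.51) and -0.13 (-0.69 to 0.42), and the first interval includes the footprint rise of 0.89 in *Hbs1l*-/- cells. TE rose by 1.59 in *Pelo*-/- cells (SE 0.31, edgeR adjusted p = 0.00114), against 0.47 in *Hbs1l*-/- cells (adjusted p = 0.532) and 0.91 in cells labelled *Upf2*-/- (adjusted p = 0.0698). Markers of other cell types moved in the same MEF libraries. The summed footprint level of the leukocyte markers *Ptprc*, *Cd68* and *Itgam* was 16.5 to 19.9 CPM in controls, 23.4 to 34.2 in *Hbs1l*-/-, 40.4 to 58.2 in *Pelo*-/- and 22.4 to 30 in cells labelled *Upf2*-/-. All 3 leukocyte markers were found, and *Itgam* alone was near 0, with at most 16 footprints in any MEF library. In RNA the sum was 7.53 to 10.8 CPM in controls, 11.8 to 17.6 in *Hbs1l*-/-, 10.5 to 15.8 in *Pelo*-/- and 7.29 to 10 in cells labelled *Upf2*-/-. Footprint sums of other lists also lay apart from the controls. Fibroblast markers (5 of 5 found) were at 20800 to 25000 CPM in *Hbs1l*-/-, 22700 to 28900 in *Pelo*-/- and 24500 to 26600 in cells labelled *Upf2*-/-, against 17600 to 18000 in controls. Endothelial markers (3 of 3 found, nearly all *Kdr* in controls) were lower, at 34.9 to 36.5 CPM in *Hbs1l*-/- against 47.9 to 57.8 and at 22.6 to 29 in *Pelo*-/- against 46.2 to 62.3. Epithelial markers in *Pelo*-/- cells were at 4.98 to 12 CPM against 1.16 to 1.89, cerebellar glial markers at 19.2 to 24 against 12.7 to 16, and visceral endoderm markers at 0.906 to 52 against 0.237 to 0.358, with 0.821 to 11.3 against 0.129 to 0.21 in cells labelled *Upf2*-/-. In RNA, *Pelo*-/- cells lay above the controls for fibroblast (7610 to 7690 against 3490 to 5870 CPM), endothelial (26.4 to 31.9 against 18.9 to 24.2) and epithelial markers (6.39 to 6.78 against 3.05 to 3.85), while the endothelial sum lay below the controls in *Hbs1l*-/- (13.3 to 16.2) and in cells labelled *Upf2*-/- (13.7 to 16.8). Purkinje cell markers in *Hbs1l*-/- cells were at 85.4 to 94.8 CPM against 79.7 to 84 in footprints. In RNA of these cells they were at 18.6 to 22.1 CPM against 24.5 to 30.6. Cerebellar granule cell markers there were at 1.22 to 1.88 CPM against 0.616 to 0.996 in RNA. The part of all these markers in the *Deptor* result and in the other MEF results was not tested. In bulk libraries such as these, fewer cells of a type and less RNA per cell cannot be told apart.

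*Rheb*, the activator of mTORC1, was lower in footprints and RNA in each of the 3 mutants. Footprints were at 106, 96.4 and 115 CPM in *Hbs1l*-/- cells against 130, 116 and 144, at 103, 94.2 and 82.8 in *Pelo*-/- cells against 126, 113 and 155, and at 90.4, 109 and 92.8 in cells labelled *Upf2*-/- against 135, 121 and 147. No mutant library reached the lowest of its controls. The log2 fold changes were -0.29 (SE 0.09, edgeR adjusted p = 0.022), -0.49 (SE 0.12, adjusted p = 0.00695) and -0.46 (SE 0.09, adjusted p = 0.00194). The last 2 held in all 6 fits without 1 library, and the first held in 2 of 6.

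*Rheb* RNA was at 80.4, 77.4 and 68.8 CPM in controls, at 47.8, 61.2 and 62.1 in *Hbs1l*-/- cells, at 48.7 and 48.4 in *Pelo*-/- cells and at 66.4, 54.9 and 46.1 in cells labelled *Upf2*-/-. The mutant groups again lay wholly below the controls. RNA fell by 0.41 on the log2 scale (SE 0.12, edgeR adjusted p = 0.0361), 0.62 (SE 0.09, adjusted p = 0.0037) and 0.45 (SE 0.14, adjusted p = 0.0452). The *Pelo*-/- call held in each of 5 fits without 1 library, and the others in 2 of 6 and 1 of 6. Those 2 were also lost in limma on log2(TPM + 1) (adjusted p = 0.0741 and 0.113), and the *Hbs1l*-/- call with the replicate block (0.072). TE of *Rheb* changed by 0.13, 0.15 and -0.03 with adjusted p of 0.705, 0.507 and 0.925. The 95% intervals of these TE changes ran from -0.21 to 0.47, from -0.22 to 0.52 and from -0.41 to 0.35.

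The subunits of the TSC complex, which turns RHEB off, are given in turn and were not tested against each other. *Tsc1* RNA rose to 31 and 32.2 CPM in *Pelo*-/- cells and to 34.4, 32.3 and 32.7 CPM in cells labelled *Upf2*-/-, against 20.1, 24.7 and 21 in controls. These are log2 fold changes of 0.54 (SE 0.12, edgeR adjusted p = 0.016) and 0.58 (SE 0.13, adjusted p = 0.00928). The first call held in 2 of 5 fits and was lost without either *Pelo*-/- library or control replicate 3 (adjusted p = 0.0852, 0.111 and 0.0519). The second held in 5 of 6 and was lost without control replicate 3 (0.0506). On log2(TPM + 1), limma called neither (adjusted p = 0.15 and 0.204), and in TPM the libraries labelled *Upf2*-/-, at 4.93, 5.22 and 4.38, overlapped the controls at 2.69, 4.58 and 3.33. In footprints, *Tsc1* rose in cells labelled *Upf2*-/-, from 18.3, 16.3 and 17 to 26.6, 19.9 and 21.4 CPM, by 0.38 (SE 0.12, edgeR adjusted p = 0.0286), and this call held in 3 of 6 fits without 1 library and was lost with DESeq2 (0.051). In *Pelo*-/- cells its footprints changed by 0.04 (SE 0.12), and TE fell by 0.48 (SE 0.17, edgeR adjusted p = 0.0313), a call that held in 5 of 11 fits without 1 library. The TE call was also lost with the replicate block (edgeR adjusted p = 0.0767). *Tsc2*, the GTPase-activating subunit, was at 84.5, 91.3 and 81.8 footprint CPM in *Pelo*-/- cells against 102, 106 and 95.7. It fell by 0.24 (SE 0.07, edgeR adjusted p = 0.0203), and the call held in 2 of 6 fits. *Tsc2* RNA did not pass in any of the 3 mutants, with log2 fold changes of -0.13, 0.06 and -0.11.

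*Ddit4*, a stress-induced brake on mTORC1, had higher footprints in *Pelo*-/- cells, at 78.8, 85.1 and 87.8 CPM against 63.3, 70 and 54.9, by 0.42 (SE 0.09, edgeR adjusted p = 0.00455). In cells labelled *Upf2*-/- it was at 81.1, 72.3 and 83.8 CPM against 70.6, 68.6 and 53.1, a rise of 0.30 (SE 0.11, adjusted p = 0.0421) that held in 3 of 6 fits without 1 library and was lost with the replicate block (0.057). The *Pelo*-/- call held in all 6. *Ddit4* RNA did not pass in either genotype, at 33.6 and 30.6 CPM in *Pelo*-/- cells (0.13, SE 0.10, adjusted p = 0.351) and 35.2, 35.8 and 40.9 in cells labelled *Upf2*-/- (0.32, SE 0.12, adjusted p = 0.0843), against 30.1, 30.8 and 28.3 in controls. TE changed by 0.31 (adjusted p = 0.0861) and by -0.04 (adjusted p = 0.903). In *Hbs1l*-/- cells *Ddit4* RNA rose to 41.1, 38.2 and 39.7 CPM, by 0.41 (SE 0.09, edgeR adjusted p = 0.0149; lost only without control replicate 3, at 0.0582), while its footprints, at 60.8, 71.4 and 66 CPM against 63.8, 71 and 50.9, overlapped the controls. The TE change of -0.31 (SE 0.16) did not pass, at an adjusted p of 0.319.

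Of the 2 repressors of eIF4E, *Eif4ebp2* had footprints that passed as lower in 2 of the mutants. *Eif4ebp2* footprints were at 11.5, 10.9 and 10.8 CPM in *Hbs1l*-/- cells against 18.4, 16.7 and 18.5. This fall of 0.68 (SE 0.12, edgeR adjusted p = 0.000745) held in all 6 fits without 1 library. *Eif4ebp2* in *Pelo*-/- cells was at 14.4, 16.4 and 14.8 CPM against 18.1, 22 and 17.4, a fall of 0.34 (SE 0.12, adjusted p = 0.0395) that held in 2 of 6 fits and was lost with DESeq2. In cells labelled *Upf2*-/- it was at 13.5, 16.1 and 15.9 CPM against 17.7, 20.5 and 16.3. These libraries also lay below their controls without overlap, but the change of -0.25 (SE 0.13, edgeR adjusted p = 0.132) did not pass. *Eif4ebp2* RNA did not pass in any mutant, with changes of 0.05, 0.10 and -0.15. Its TE in *Hbs1l*-/- cells changed by -0.71 (SE 0.14) with an unadjusted p of 7.48e-05 and an adjusted p of 0.0935 in edgeR, and TE fell in *Pelo*-/- cells by 0.42 (SE 0.13, adjusted p = 0.0201), a call that held in 9 of 11 fits.

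*Eif4ebp1* footprints were at 89.5, 95.4 and 91.3 CPM in *Pelo*-/- cells against 79.8, 76.7 and 71, a rise of 0.28 (SE 0.07, edgeR adjusted p = 0.00842). RNA of *Eif4ebp1* was lower in the same cells, at 142 and 144 CPM against 179, 185 and 188, and fell by 0.35 (SE 0.08, edgeR adjusted p = 0.0138). The groups were apart in both assays, in opposite directions, and TE rose by 0.65 (SE 0.10, adjusted p = 0.000238). The TE call held in each of 11 fits without 1 library and the RNA call in 3 of 5. The RNA call was also lost with the replicate block (adjusted p = 0.0666) and in limma (0.198). In *Hbs1l*-/- cells *Eif4ebp1* was at 60.9, 66 and 65.2 footprint CPM against 80.8, 76.3 and 64.7, a change of -0.21 (SE 0.09, adjusted p = 0.0848). In cells labelled *Upf2*-/- it was at 82.4, 98.6 and 93.7 against 84.7, 81.4 and 67.9, a change of 0.24 (SE 0.10, adjusted p = 0.066). Both groups overlapped their controls, and both changes passed when the controls were summed over the pools.

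*Rps6kb1*, encoding S6 kinase 1, had lower RNA in *Pelo*-/- cells, at 20.8 and 19.7 CPM against 34, 37 and 35.1. It fell by 0.79 (SE 0.10, edgeR adjusted p = 0.00226), the largest RNA change of the 10 genes in that comparison. Footprints stayed at 40.3, 40.1 and 41.6 CPM against 40.7, 41 and 42.8, a change of -0.03 with a 95% interval from -0.19 to 0.13. TE rose by 0.78 (SE 0.11, edgeR adjusted p = 0.000127). The RNA call held in each of 5 fits without 1 library and the TE call in each of 11, and limma on log2(TPM + 1) did not call the RNA change (-0.36, adjusted p = 0.116). In *Hbs1l*-/- cells *Rps6kb1* was at 42, 41.1 and 47.6 footprint CPM against 39.6, 37.3 and 39.8, and in cells labelled *Upf2*-/- at 44.7, 51.9 and 43.8 against 40.3, 39.2 and 43.1. These groups did not overlap, but the changes of 0.17 and 0.20 did not pass (adjusted p = 0.16 and 0.0765).

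Direct tests between mutant MEFs showed where the genes differed between the mutant groups. Each mutant genotype was sequenced in its own pool, together with control libraries. *Pelo*-/- cells exceeded *Hbs1l*-/- cells in footprints on *Eif4ebp1* by 0.54 (SE 0.07, edgeR adjusted p = 0.000373), on *Eif4ebp2* by 0.46 (SE 0.11, adjusted p = 0.014) and on *Ddit4* by 0.37 (SE 0.08, adjusted p = 0.00768). These are 3 of 10 genes against 18.4% of all genes. Cells labelled *Upf2*-/- exceeded *Hbs1l*-/- cells on *Eif4ebp1* by 0.51 (SE 0.08, adjusted p = 0.00117) and on *Eif4ebp2* by 0.45 (SE 0.12, adjusted p = 0.0268), 2 of 10 against 14.8%. This *Eif4ebp2* difference held in 4 of 9 fits without 1 library (adjusted p up to 0.0938) and DESeq2 did not call it (adjusted p = 0.0547), whereas that between *Pelo*-/- and *Hbs1l*-/- cells held in 8 of 9. *Pelo*-/- cells were below those labelled *Upf2*-/- on *Rptor*, by -0.37 (SE 0.07, adjusted p = 0.00214), 1 of 10 against 28.4%. *Deptor* and *Rheb* did not pass in these tests. The *Rheb* intervals ran from -0.39 to 0.04 for *Pelo*-/- minus *Hbs1l*-/-, from -0.35 to 0.09 for *Upf2*-/- as labelled minus *Hbs1l*-/-, and from -0.26 to 0.17 for *Pelo*-/- minus *Upf2*-/- as labelled. The mean levels of the 10 genes in the 3 sets of control libraries differed by 0.03 to 0.16 on the log2 scale. Same-numbered controls agreed so closely that they may come from the same cultures. These values therefore need not reflect differences in culture between the pools.

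Transcript estimates showed where the RNA of these genes lay. Only 23.9 to 39.5% of *Eif4ebp1* TPM and 25.9 to 39.2% of *Rps6kb1* TPM came from protein-coding transcripts, and 45.6 to 83.3% of *Rheb* TPM did. The rest was mostly assigned to the processed transcript Eif4ebp1-202, a retained-intron transcript of *Rps6kb1* and the retained-intron transcript Rheb-202. In control MEFs the coding transcript of *Eif4ebp1* was at 57.6, 74.5 and 56.7 TPM and Eif4ebp1-202 at 118, 131 and 181 TPM. In *Pelo*-/- cells the coding transcript was at 63.3 and 60 TPM and Eif4ebp1-202 at 109 and 98.9 TPM, changes of -0.19 (edgeR adjusted p = 0.488) and -0.61 (adjusted p = 0.145), so the gene-level fall in *Eif4ebp1* RNA was not shown for its coding transcript. The gene-level RNA and TE changes above include these noncoding transcripts, whereas footprints were counted on coding sequence.

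By transcript, Rps6kb1-207, a coding form, was at 2.86 and 2.47 TPM in *Pelo*-/- cells against 3.74, 5.49 and 5.14 in controls. It fell by 1.02 (SE 0.15, edgeR adjusted p = 0.0454), the 1 of 31 member transcripts past the threshold, against 2.37% of all transcripts tested. Tsc2-205, also coding, was at 3.2, 3.03 and 2.37 TPM in cells labelled *Upf2*-/- against 4.25, 4.53 and 4.42. It fell by 0.67 (SE 0.12, edgeR adjusted p = 0.0325), 1 of 35 against 5.35%. In *Hbs1l*-/- cells 0 of 33 passed in edgeR, against 1.31%, with 3 at an unadjusted p under 0.05 and 1 called by DESeq2. Leaving out any 1 library ended either call, with adjusted p from 0.0945 to 0.276 for Rps6kb1-207 and from 0.0726 to 0.128 for Tsc2-205.

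In whole E8.5 embryos, none of the 10 genes changed detectably without *Hbs1l*. In edgeR 0 of 10 passed, against 1.87% of all genes, 0 had an unadjusted p under 0.05 and DESeq2 called 0. *Ddit4* had the largest change, 0.38 (SE 0.28, adjusted p = 0.473), with its libraries at 130, 49.3 and 116 CPM in *Hbs1l*-/- against 64.8, 89 and 72.6 in wild type. *Eif4ebp2* was at 29.8, 23.2 and 28.3 CPM against 28.4, 34.7 and 35.4, a change of -0.28 with a 95% interval from -0.72 to 0.16. That interval includes the fall of 0.68 seen in MEFs. *Rheb* changed by 0.14 (interval -0.24 to 0.53). *Deptor* rested on 5 to 24 footprints per library, too few to show a difference of the size seen in MEFs (interval -1.32 to 1.04). Markers of the embryo and its blood (*Hba-x*, *Hbb-bh1*, *Hbb-y*, *T*, *Otx2*, 5 of 5 found) summed to 3250 to 8170 CPM in *Hbs1l*-/- and 13100 to 17100 CPM in wild type. Endothelial markers were at 421 to 630 against 353 to 370 CPM, epithelial markers at 805 to 941 against 598 to 655, and fibroblast markers at 523 to 685 against 744 to 848. The part of these lists in the embryo values was not tested.

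In P14 cerebella, 0 of 10 genes passed in edgeR, against 0.0624% of all genes, with 0 at an unadjusted p under 0.05 and 0 called by DESeq2. *Rheb* was at 160, 148 and 169 CPM in *Hbs1l* cKO against 173, 177 and 195 in controls. Its libraries did not overlap, and the change of -0.19 (SE 0.12, adjusted p = 0.523) did not pass. *Mtor* was at 166, 177 and 122 CPM against 274, 224 and 135, a change of -0.45 (SE 0.25, adjusted p = 0.499). *Eif4ebp2* was at 21.7, 21.6 and 25.3 CPM against 18.3, 18.2 and 22.8, a change of 0.21 (SE 0.14). Its interval from -0.12 to 0.54 does not include the fall seen in *Hbs1l*-/- MEFs, but the difference between cerebella and MEFs was not tested. *Hbs1l* footprints were also less depleted here, with means of 14.5 CPM in cKO and 40.9 in control cerebella, against 1.93 and 35.8 in MEFs. *Eif4ebp1* had 13 to 47 footprints per library. Purkinje cell markers (*Pcp2*, *Calb1*, *Car8*, *Itpr1*, 4 of 4 found) summed to 4600 to 5990 CPM in cKO and 6000 to 11200 CPM in control cerebella, and granule cell markers (5 of 5 found) to 2000 to 2690 and 2220 to 4080 CPM. The embryo and blood list was at 29 to 43.6 CPM in cKO and 21.4 to 25.6 in control cerebella. Their part in these values was not tested. The effect of *Hbs1l* loss differed between embryos and cerebella for 0 of 10 genes in edgeR, against 0.732% of all genes, with 0 at an unadjusted p under 0.05 and 0 called by DESeq2.

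**Figure D3:**
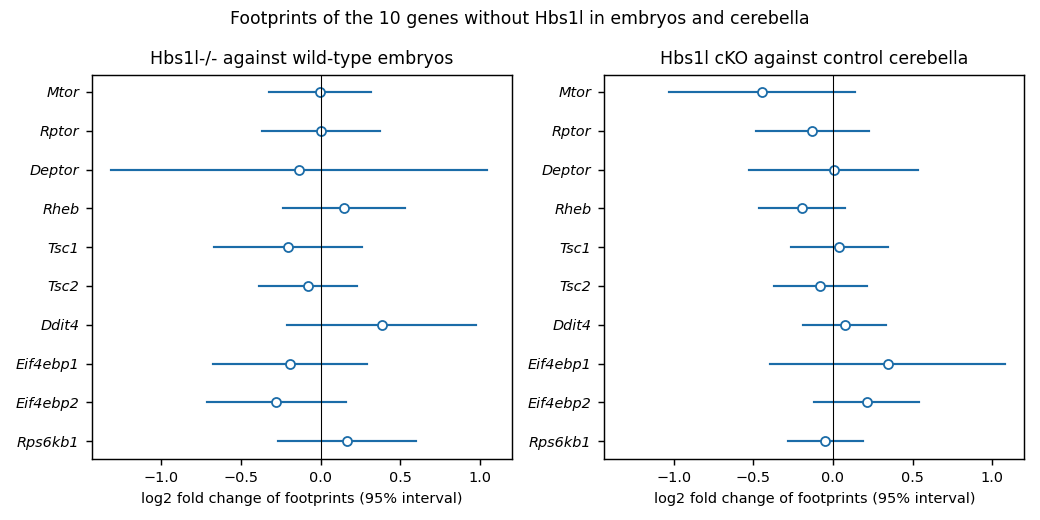
Log2 fold change of footprints (horizontal axis) for the 10 genes without *Hbs1l* in embryos (left) and cerebella (right), with 95% intervals. All symbols are open, because 0 of 10 passed an adjusted p of 0.05 in either tissue. The *Deptor* interval in embryos, from -1.32 to 1.04, was the widest.

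Between control tissues, where tissue coincides with batch and age (also with strain for embryos and with a narrower fragment size selection for cerebella), footprints on *Eif4ebp1* differed widely. *Eif4ebp1* was at 230, 193 and 223 footprint CPM per kilobase of coding sequence in embryos and 296, 286 and 243 in MEFs, but at 2.77, 2.96 and 3.82 in cerebella. The cerebella lay 6.04 below embryos on the log2 scale (SE 0.17, edgeR adjusted p = 4.38e-12). *Eif4ebp2* varied far less, at 75.6 ± 8.73 in embryos, 50.1 ± 7.09 in cerebella and 64.8 ± 4.96 in MEFs (SD, n = 3), so that it exceeded *Eif4ebp1* in cerebella only. *Eif4ebp2* in cerebella was below embryos by 0.60 (SE 0.15, edgeR adjusted p = 0.00304).

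*Ddit4* was highest in cerebella, at 228 to 265 CPM per kilobase against 78.3 to 107 in embryos and 97.1 to 130 in MEFs. It exceeded embryos by 1.46 (SE 0.15, edgeR adjusted p = 6.08e-07). *Rheb* was at 301 ± 23 in cerebella and 304 ± 33.5 in MEFs, which did not differ (0.01, interval -0.27 to 0.30), and was lower in embryos at 137 ± 25.1. *Mtor* was at 31.9, 26.7 and 16.1 in cerebella, 15, 17 and 14.4 in embryos and 12.6, 13.8 and 11.6 in MEFs. *Rps6kb1* was highest in MEFs, at 26.5 ± 0.69 against 16.4 ± 0.71 in cerebella, a difference of 0.69 (SE 0.12, edgeR adjusted p = 9.73e-05). *Deptor* was the lowest of the 10 genes in embryos and MEFs (1.74 ± 0.65 and 3.84 ± 0.41) and shared the lowest place with *Eif4ebp1* in cerebella (3.73 ± 0.90 against 3.18 ± 0.56).

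In counts, 9 of 10 genes differed between cerebella and embryos (6 higher, 3 lower) against 80.1% of all genes (45.1% higher, 35.0% lower). Between MEFs and embryos 6 of 10 were higher in MEFs, against 69.0% in either direction (35.9% higher, 33.1% lower). Between MEFs and cerebella 6 of 10 differed, 3 in each direction, against 81.0% (37.1% higher, 43.9% lower). The median of all genes was itself shifted by 0.29 between cerebella and embryos and by -0.15 between MEFs and cerebella, so that of the differences of *Rptor* (0.44) and *Tsc1* (0.42) between cerebella and embryos, only the excess over 0.29 is relative to the median gene. With DESeq2's scaling in edgeR (RLE), the MEF and embryo differences of *Tsc2*, *Ddit4*, *Eif4ebp1* and *Rps6kb1* no longer passed, leaving 2 of 10. The *Rps6kb1* difference between cerebella and embryos (-0.30, SE 0.13) held in 2 of 9 fits without 1 library. Within embryos, the ranges of *Ddit4* and *Eif4ebp2* overlapped, as did those of *Rps6kb1* with *Tsc2* and of *Mtor* with *Rptor*.

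**Figure D4:**
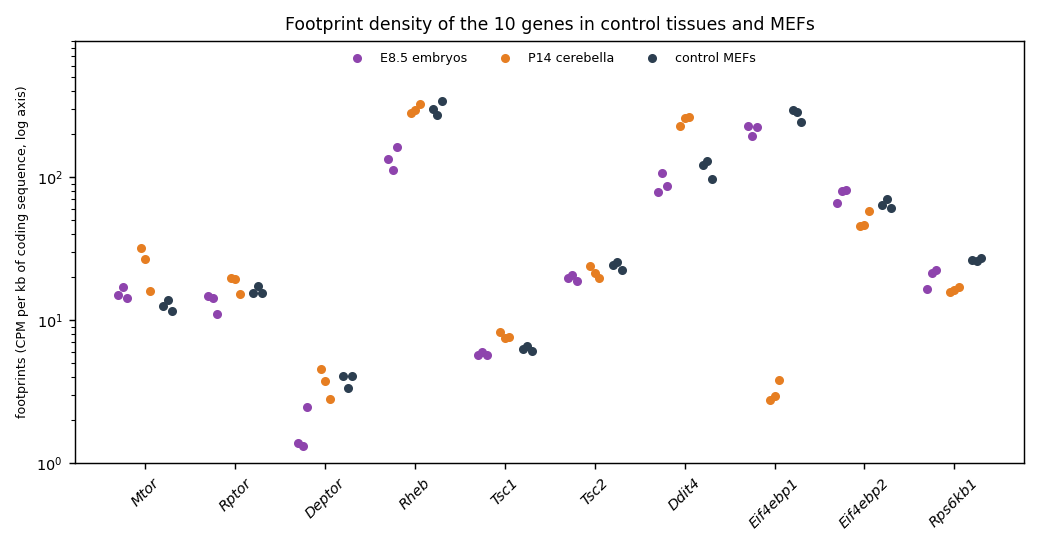
Footprint density of the 10 genes in control embryos, cerebella and MEFs, in CPM per kilobase of coding sequence on a log axis, 1 point per library (MEF controls summed by replicate number over the 3 pools). *Eif4ebp1* in cerebella, at 2.77 to 3.82, stands far below its embryo and MEF levels.

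Over the 8 footprint groups, *Eif4ebp1* had the widest range of group means (6.58 on the log2 CPM scale) and *Deptor* the next (2.62), and *Tsc2* the narrowest (0.31). As a description across 8 group means that share libraries, tissues and depth, the genes most like *Eif4ebp1* were *Ddost* (Pearson r = 0.9985), *Mtap* (0.9981) and *Rarg* (0.9980). Those most like *Deptor* were *Siglec1* (0.9956), *Samd9l* (0.9956) and *Itgb2* (0.9886). What these likenesses reflect was not tested.

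The other genes of the pathway, a list of 78 by role of which 77 were tested, had in *Hbs1l*-/- MEF footprints 8 higher and 18 lower (33.8% called, against 34.1% of all genes). In *Pelo*-/- MEFs 8 were higher and 28 lower (46.8% against 44.1%), and in MEFs labelled *Upf2*-/- 14 were higher and 21 lower (45.5% against 43.4%). The list median was -0.08, -0.13 and -0.10. The growth factor and energy inputs, which signal to the TSC complex, had 1 higher and 7 lower of 23 in *Hbs1l*-/-, 0 and 12 in *Pelo*-/- and 2 and 11 in MEFs labelled *Upf2*-/-, with medians of -0.14, -0.33 and -0.25. Over all genes, 16.7%, 21.2% and 21.1% were called lower. The genes of GATOR1, GATOR2 and KICSTOR had 4 higher and 0 lower of 11 in *Hbs1l*-/- MEFs. They had 2 and 1 in *Pelo*-/- MEFs and 5 and 1 in MEFs labelled *Upf2*-/-. Their medians were 0.18, 0.12 and 0.25, and 17.4%, 22.9% and 22.3% of all genes were called higher. Neither list was tested against all genes. *Prkaa2*, a catalytic subunit of AMPK, fell by 1.27 (SE 0.32) in *Pelo*-/- MEFs and by 0.98 (SE 0.25) in MEFs labelled *Upf2*-/-.

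Among the partners of the members, *Mlst8*, the third core subunit of mTORC1, rose in MEFs labelled *Upf2*-/- by 0.82 in footprints (SE 0.10, edgeR adjusted p = 5.55e-05) and by 1.33 in RNA (SE 0.14, adjusted p = 9.24e-05). *Itfg2*, of the KICSTOR complex that holds GATOR1 at the lysosome, rose there by 1.19 in footprints and 1.51 in RNA, and in *Hbs1l*-/- MEFs by 0.51 and 0.65. *Prkab1*, a regulatory subunit of AMPK, rose by 0.98 and 1.25 in MEFs labelled *Upf2*-/-. *Prr5l*, which binds mTORC2, fell in footprints of *Hbs1l*-/- and *Pelo*-/- MEFs by 0.68 and 1.08. RNA of *Pdcd4*, an inhibitor of eIF4A that S6 kinase marks for degradation, fell by 1.145, 1.85 and 0.97 in the 3 mutants, while its TE rose in *Pelo*-/- MEFs by 1.00 (SE 0.33, edgeR adjusted p = 0.0246). *Eif4a1*, the helicase it inhibits, rose in *Pelo*-/- footprints by 0.66 (SE 0.15).

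For RNA the whole list of 77 had 8 higher and 12 lower in *Hbs1l*-/- (26.0% called, against 23.1% of all genes), 11 and 13 in *Pelo*-/- (31.2% against 32.1%) and 13 and 8 in MEFs labelled *Upf2*-/- (27.3% against 20.0%). For TE it had 0 and 0 in edgeR in *Hbs1l*-/- (against 0.0336% of all genes, with 15 of the list at an unadjusted p under 0.05), 12 and 20 in *Pelo*-/- (41.6% against 44.6%) and 1 and 14 in MEFs labelled *Upf2*-/- (19.5% against 20.3%). In embryos 1 of 77 passed (1.3% against 1.87% of all genes, with 12 at an unadjusted p under 0.05), the Ragulator subunit *Lamtor5*, which fell by 1.21 (SE 0.28, edgeR adjusted p = 0.0458), and in cerebella 0 of 77 passed in edgeR (against 0.0624%), with 4 at an unadjusted p under 0.05. DESeq2 was not summarised over this list.

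**Figure D5:**
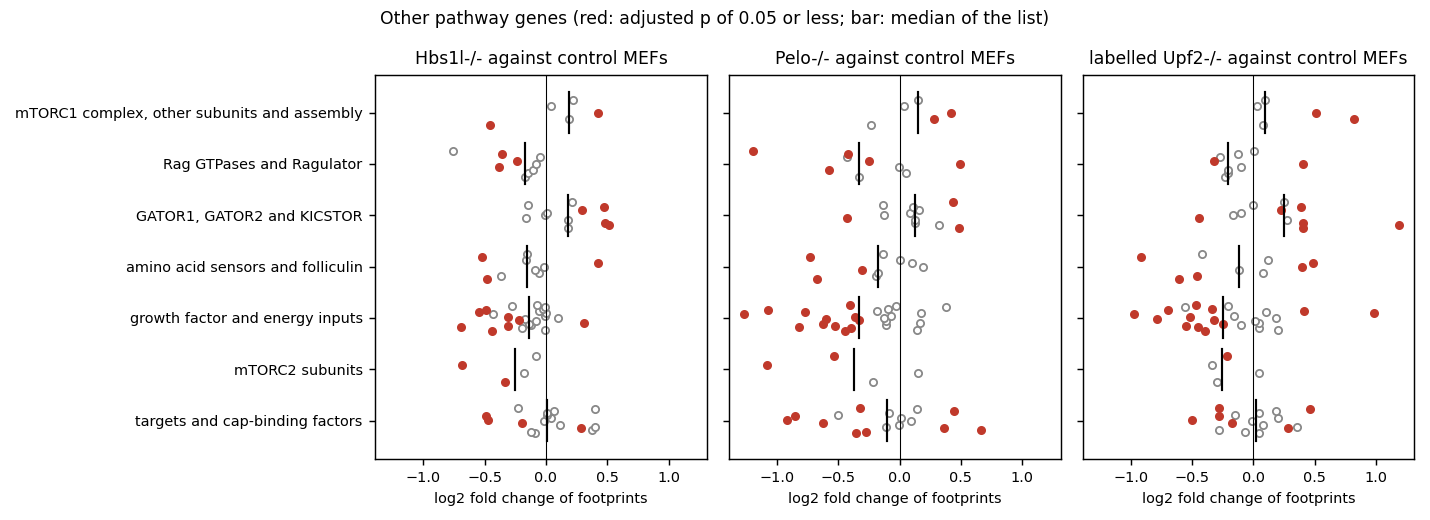
Log2 fold change of footprints (horizontal axis) for the other pathway genes by role in each mutant against control MEFs, 1 point per gene, with a bar at the median of each group. Red points passed an adjusted p of 0.05. In the growth factor and energy inputs, 7, 12 and 11 of 23 genes were called lower, beside 16.7%, 21.2% and 21.1% of all genes.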

How the data were processed

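Footprints and RNA were measured as described above. The deposited footprint files hold raw counts per gene, which the authors made by clipping adapters, removing rRNA and tRNA reads with Bowtie2 2.2.3, mapping to mm10 with HISAT2 2.1.0 and counting reads on coding sequence with featureCounts. RNA files, as the authors deposited them, hold a kallisto 0.42.4 estimated count and TPM for each transcript. Estimated counts were rounded here and summed per gene.

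The 10 genes and all lists were chosen with earlier results of these data known. Each comparison was fitted over all genes with edgeR 4.0.16 in R 4.3.3 (TMM factors, default filter on low counts, quasi-likelihood test, Benjamini-Hochberg adjustment, threshold 0.05) and checked on simulated data. As in the study's methods, 100 histone genes were left out of footprint and TE tests. Footprint CPM were scaled by TMM within each comparison, and RNA CPM over all 11 RNA libraries. Alternatives were RLE factors, no filter, the replicate number as a block, DESeq2 1.42.0, limma 3.58.1 on log2(TPM + 1) with at least 1 TPM in 2 libraries, controls summed over pools, and leaving out each library. All 10 genes, the targeted genes, called member transcripts and, of other pathway genes, up to 3 called genes with the largest rise and fall per comparison were eligible to be named. Coordinates are from GENCODE M21 (GRCm38).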

Additional observations from a re-analysis of the deposited data

Results flagged for a closer look

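These footprint differences are listed because a direct test between mutant MEF genotypes passed the threshold (edgeR, adjusted over all 12320 genes). *Pelo*-/- minus *Hbs1l*-/- gave 0.54 for *Eif4ebp1*, 0.37 for *Ddit4* and 0.46 for *Eif4ebp2*. Cells labelled *Upf2*-/- minus *Hbs1l*-/- gave 0.51 for *Eif4ebp1* and 0.45 for *Eif4ebp2*. *Pelo*-/- minus cells labelled *Upf2*-/- gave -0.37 for *Rptor*. The *Eif4ebp1*, *Ddit4* and *Rptor* differences held in each of 9 fits that left out 1 library, and the *Eif4ebp2* differences in 8 of 9 and in 4 of 9. The mean of *Eif4ebp1* in the control libraries of the 3 pools differed by at most 0.07, of *Eif4ebp2* by 0.10 and of *Ddit4* and *Rptor* by 0.04. Same-numbered controls may come from the same cultures, so these values need not reflect differences in culture between the pools. Each mutant genotype was sequenced in its own pool together with control libraries, and the part of the pool in these differences was not tested.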

How the results depend on the processing

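Among the member genes and the called member transcripts, no called value changed direction under any alternative. The targeted genes and the other pathway genes were not part of this check. RLE factors left 2 members called between MEFs and embryos (main 6) and DESeq2 left 3. Without the filter on low counts, 703 genes were called in embryos (main 214) and 16 in cerebella (main 9). DESeq2 called 415 and 476 genes there, 1 member and 332 genes for TE in *Hbs1l*-/- MEFs (main 0 and 4), 586 genes for the embryo-cerebellum difference (main 107), and 1 member between cells labelled *Upf2*-/- and *Hbs1l*-/- (main 2). For transcripts DESeq2 called 1 member and 3498 in *Hbs1l*-/-, 5 and 4137 in *Pelo*-/-, and 3 and 5467 in cells labelled *Upf2*-/- (main 0 and 481, 1 and 826, 1 and 2175). With limma on log2(TPM + 1), RNA calls were 1 member and 1571 genes (main 2 and 3542), 3 and 1819 (main 6 and 4727), and 1 and 1405 (main 3 and 3194). The cause of these differences was not tested. Same-numbered mutant and control samples did not deviate together (correlation -0.24 to 0.22). No pairing by number was seen, but so few libraries per group cannot exclude it. With the replicate block, 564 genes were called in embryos, 0 in cerebella, 71 for TE in *Hbs1l*-/-, 1 member for RNA in *Hbs1l*-/- and 2955 genes for RNA in *Pelo*-/-.

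Leaving out 1 library gave 28 to 2309 genes in embryos (lowest without wild-type replicate 2, highest without *Hbs1l*-/- replicate 1), 0 to 560 in cerebella and 8 to 1123 for their difference. Members called ranged from 2 to 4 in *Hbs1l*-/- footprints, 1 to 2, 2 to 6 and 1 to 3 in RNA, 0 to 1 for TE in *Hbs1l*-/- and in cells labelled *Upf2*-/-, 1 to 2 for both tests against cells labelled *Upf2*-/-, 3 to 8 between MEFs and embryos, and 0, 0 and 0 to 1 for transcripts. Genes called ranged from 1817 to 2663, 1506 to 4802 and 1800 to 3201 in RNA, 0 to 67 and 1507 to 2840 for TE, 1233 to 2177 and 1026 to 2068 between *Hbs1l*-/- and the other mutants, and transcripts from 0 to 0, 0 to 0 and 567 to 1278. Few footprints limit the tests of *Deptor* in embryos and *Eif4ebp1* in cerebella.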
